A study of Drosophila melanogaster with 57 samples.

Results

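The genes described here are 8 *Drosophila melanogaster* genes of fat synthesis and fat breakdown, namely *FASN1*, *FASN2*, *ACC*, *mdy*, *bmm*, *Lip3*, *Lip4* and *Hnf4*. They were taken as a list of FlyBase symbols by a rule that uses no measured value, but the list was chosen with earlier results of these data known. Of the 8 genes, 7 had a row among the 17559 genes of the files. *FASN1* (FBgn0283427) matched no row and was not analysed here. RNA was sequenced from flies of both sexes aged 5 days, to compare the transcriptomes of strains that lack enzymes of hydrogen sulfide production with a control. Each of the 19 groups of strain, sex and body part has 3 libraries, which makes 57 libraries.

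Whole flies of both sexes came from 6 deletion strains and the control. MST lacks the *MST* gene (CG12279), CSE(8) lacks the *CSE* gene (*Cth*), and CBS(5) and CBS(8) are separate lines that lack the *CBS* gene (*Cbs*). CBS/CSE(1) was derived from CBS(5) and CBS/CSE(2) from CBS(8) by crosses with the *CSE* deletion, so both lack *Cbs* and *Cth*. The control is stock 58492, in which Cas9 is expressed under the Act5C promoter and which carries mutations in *y*, *w* and *DNAlig4*. Each strain with a single deletion is 1 transformant line with an mCherry reporter in place of the gene, and injected animals were crossed to a yw laboratory strain. The double deletions were bred from such lines through crosses that included balancer strains. Strain background and deletion therefore cannot be told apart. Thoraxes of both sexes were sequenced from CBS(5) and the control. Male libraries labelled as CBS/CSE(2) backcrossed on yw form the last group.

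Insects build fat from acetyl-CoA. *ACC* encodes acetyl-CoA carboxylase, which makes the malonyl-CoA that the fatty acid synthases *FASN1* and *FASN2* extend into fatty acids, and *FASN2* is known for its work in oenocytes, the cells that make cuticular hydrocarbons. *mdy* (midway) encodes the diacylglycerol acyltransferase that closes triglyceride synthesis. Stored fat is released by *bmm* (brummer), the fly counterpart of adipose triglyceride lipase, while *Lip3* and *Lip4* belong to the acid lipase family and are known as genes that respond to fasting. *Hnf4* encodes a nuclear receptor that promotes the use of fat during fasting. Much of the fat metabolism of the adult takes place in the fat body, the gut and the oenocytes, which are spread over the whole fly.

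In dm6 coordinates, *FASN2* (FBgn0042627) lies on the plus strand of 2L from 3043947 to 3056143, beside *FASN1*. How reads that fit both synthases were assigned is not given in the sources used here. *ACC* (FBgn0033246) is on the minus strand of 2R from 7974115 to 7991862 and *mdy* (FBgn0004797) on the plus strand of 2L from 16816660 to 16826964. *bmm* (FBgn0036449) is on the minus strand of 3L from 14776496 to 14786412. *Lip3* (FBgn0023495) is on the minus strand of 3R from 13370240 to 13371904, and *Lip4* (FBgn0032264) on the plus strand of 2L from 10527572 to 10531778. *Hnf4* (FBgn0004914) is on the minus strand of 2L from 8687226 to 8709611. *Lip3* shares 7.5% of its exon bases with *CheA87a* and *Hnf4* shares 3.3% with asRNA:CR44992, both on the opposite strand, and the strand setting of the counting is not given in the sources used here.

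Whole female libraries held 19612605 to 28768678 counts on genes, whole male libraries 9705034 to 18623886, and thorax libraries 10645727 to 31616200. The deleted genes were low where the labels say so. *Cbs* had 0.0772 to 1.36 CPM (the count of a gene scaled to 1e+06 counts on genes) in whole flies of the 4 strains that lack it, against 55.1 to 204 CPM in the control, and CG12279 had 0.977 to 2.88 CPM in MST against 9.69 to 15.9 CPM in the control. *Cth* was lower in CSE(8) and both double deletions than in the control, least so in CSE(8) males, which had 15.4 to 26.5 CPM against 58.1 to 71.4 CPM in control males. Some libraries stand apart. Genes of the ovary germline were found in male libraries, at an estimated female share of 10.5% and 34.9% in libraries 1 and 2 of CBS(5), 18.1% and 19.3% in libraries 1 and 2 of CBS(8), 8.36% to 15.8% in CSE(8), at most 1.24% in MST and the double deletions, and 3.58% to 8.21% in the control. Eggshell genes gave higher shares, 26.6% and 88.2% in the same CBS(5) libraries, 54.2% and 27.3% in those of CBS(8) and 25.9% to 50.9% in CSE(8). They gave at most 1.74% in MST and the double deletions, and 5.6% to 13.2% in the control. The share thus depends on the genes used. CSE(8) females had 7.24 to 7.78 CPM of *Cth*, less than the CSE(8) males, and the strain that this female RNA came from was not tested. Among the thoraxes, library 1 of the control females had 31.3% of its reads ambiguous between genes and library 3 of the control females and of the control males had few reads outside genes (2.26% and 4.56%).

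Per kilobase of exon, control females had *bmm* highest at 40.3 CPM and *ACC* next at 37.6, then *Hnf4* at 15.9, *mdy* at 14.2, *FASN2* at 10.8, *Lip4* at 9.25 and *Lip3* at 0.434 CPM per kilobase. In control males the order was another one. *ACC* came first at 147 CPM per kilobase, followed by *FASN2* at 63.5, *bmm* at 54.7, *Lip4* at 44.3, *Hnf4* at 19.3, *mdy* at 19.1 and *Lip3* at 5.16 CPM per kilobase. *ACC*, *FASN2*, *Lip3* and *Lip4* had log2 differences of females over males between -3.47 and -1.85 in the control, while for *bmm*, *mdy* and *Hnf4* that difference was between -0.33 and -0.16 and for the median of all genes -0.86.

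**Figure D1:**
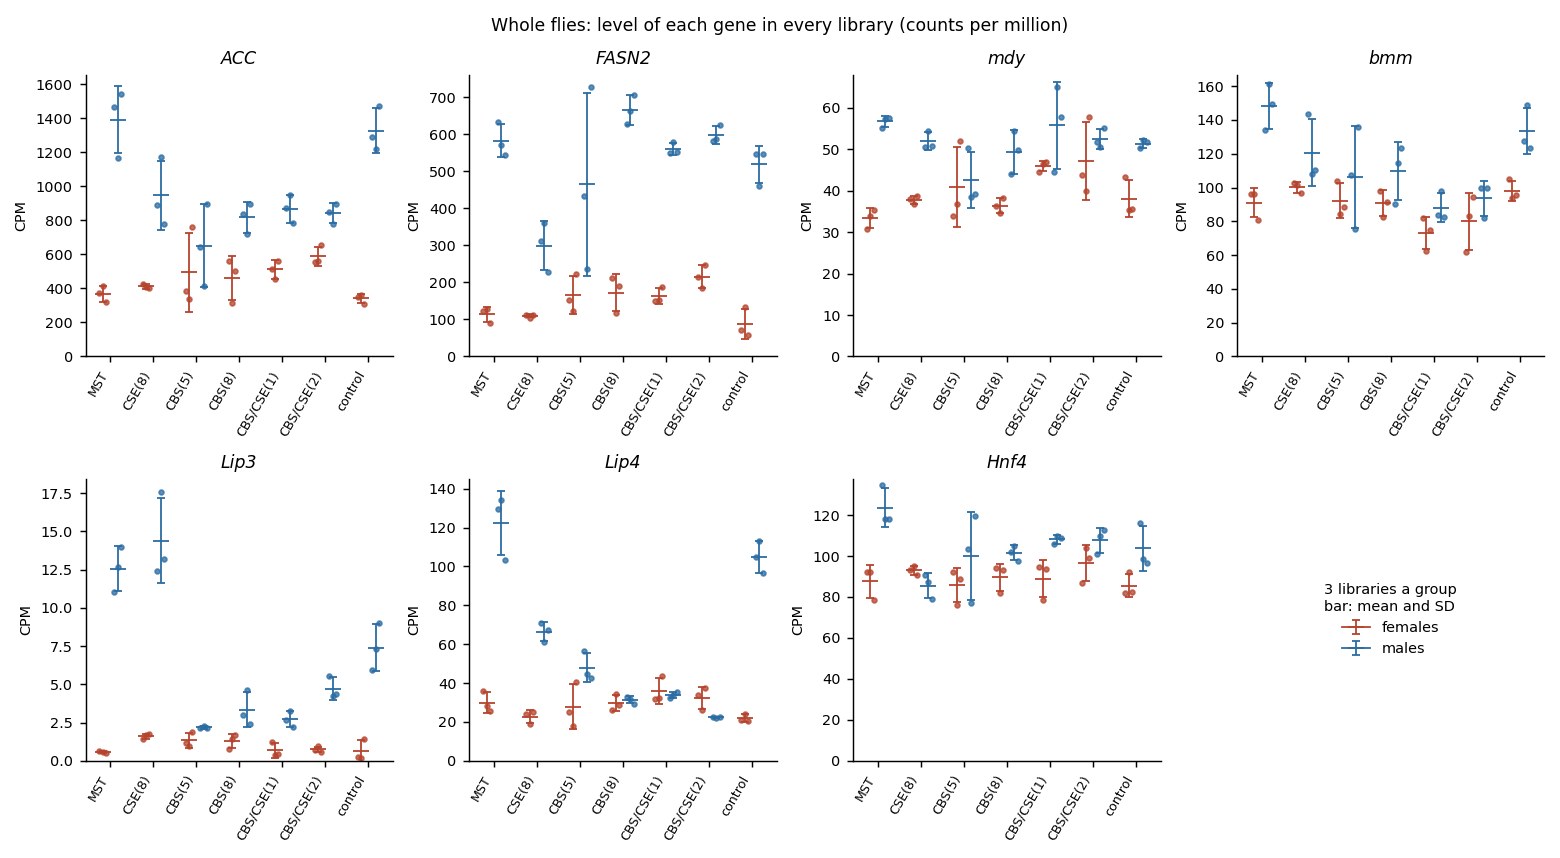
Level of the 7 measured genes in whole flies, in CPM, for the 6 deletion strains and the control at the right. Points are libraries and bars give the mean and SD of 3 libraries, for females (red) and males (blue). The male values of Lip4 lie at 21.9 to 71.0 CPM in the 5 strains other than MST, below the 96.7 to 113 CPM of the control, while the female values of all strains stay between 17.8 and 43.5 CPM.

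A gene counts as called when its adjusted p, by the quasi-likelihood test of edgeR with Benjamini-Hochberg adjustment over all genes tested, was under 0.05. In males, *Lip4* and *ACC* fell in all 4 strains without *Cbs*, and *Lip3* in 3 of them. Of the 7 genes, 0 rose and 3 fell in CBS(5) males, where 32.7% of all genes were called (18.1% lower), and 0 rose and 3 fell in CBS(8) males, where 32.3% were (19.6% lower). In CBS/CSE(1) males 0 rose and 4 fell beside 12.7% of all genes called (7.29% lower), and in CBS/CSE(2) males 0 rose and 2 fell beside 18% (9.74% lower). CSE(8) males had 1 gene called higher and 1 lower beside 3.71% of all genes. MST males had none called by edgeR beside 1.54% of all genes, with 1 gene at an unadjusted p under 0.05 beside 16.6%, and *Lip3* called higher by DESeq2. Of 13036 genes, DESeq2 called 253 higher in these males. In each of the 4 strains without *Cbs* the members called, all of them lower, are a larger share than that of all genes called lower. In CBS(5) and CBS(8) males the count of 3 of 7 is closer to the share of all genes called in either direction. With 7 genes, these shares are a description.

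In females fewer genes were called, and most of them rose. MST and CSE(8) females had 0 genes called by edgeR or by DESeq2, beside 0.891% and 2.73% of all genes by edgeR, with 0 and 1 genes at an unadjusted p under 0.05 beside 7.98% and 15% of all genes. Of 10548 genes, DESeq2 called 182 and 469 in these females. CBS(5) and CBS(8) females each had 1 gene higher, beside 15.2% (11.3% higher) and 24.6% (16.6% higher) of all genes called. CBS/CSE(1) females had 2 higher and 1 lower beside 30.8%, and CBS/CSE(2) females 3 higher and 1 lower beside 66.3%. These shares are near that of all genes or below it. The directions rest on the scaling. With TMM factors from thorax genes alone 0 of the 7 genes were higher in females of any strain, and 3 were lower in CBS(8), 1 in CBS/CSE(1) and 4 in CBS/CSE(2), on scales where the median of all genes was -0.63, -0.54 and -1.0. Of 10548 genes tested, 5004, 3379 and 6655 were called lower in these strains with the same factors. Between 39 (MST) and 845 (CBS/CSE(2)) were called higher.

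In whole males *Lip4* fell in 5 of the 6 strains, more than any other of the 7 genes. It had 71.0, 61.2 and 67.1 CPM in CSE(8), 56.4, 44.4 and 42.8 CPM in CBS(5), and 33.0, 31.9 and 29.4 CPM in CBS(8) males. The double deletions had 32.3, 33.7 and 35.3 CPM in CBS/CSE(1) and 22.6, 21.9 and 22.6 CPM in CBS/CSE(2), against 105, 113 and 96.7 CPM in control males. Every male library of these 5 strains lay below every control library. The groups fell in the order CSE(8), CBS(5), CBS/CSE(1), CBS(8) and CBS/CSE(2), and the libraries of neighbours in that order overlapped only between CBS/CSE(1) and CBS(8).

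The log2 fold change of *Lip4* in males was -0.61 (SE 0.12, adjusted p = 0.0052) in CSE(8) and -1.04 (SE 0.12, adjusted p = 9.2e-06) in CBS(5). It was -1.68 (SE 0.12, adjusted p = 3.0e-08) in CBS(8), -1.67 (SE 0.12, adjusted p = 2.9e-08) in CBS/CSE(1) and -2.18 (SE 0.13, adjusted p = 1.3e-09) in CBS/CSE(2). The MST males, at 129.8, 134 and 104 CPM, overlapped the control and were not called (0.24, SE 0.12, adjusted p = 0.32). Female RNA moved with strain in these males. The libraries with the least of it, library 3 of CBS(5) at 1.04% and library 3 of CBS(8) at 1.10%, had 42.8 and 29.4 CPM of *Lip4*, the lowest of their groups. With the germline-based share of female RNA subtracted, an alternative added after the data had been seen, the call in CSE(8) was lost (log2 fold change -0.50) and those of the other 4 strains held. The subtraction used the profile of females of the same strain. CSE(8) females had 7.24 to 7.78 CPM of *Cth*, against 15.4 to 26.5 CPM in CSE(8) males, so this profile may be the wrong one for CSE(8). The part of female RNA in the other differences between libraries was not tested.

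In females *Lip4* stayed at low levels. It had 35.8, 28.1 and 25.6 CPM in MST, 24.2, 18.7 and 24.9 CPM in CSE(8), 25.0, 17.8 and 40.7 CPM in CBS(5), and 26.1, 34.3 and 28.5 CPM in CBS(8). CBS/CSE(1) had 32.0, 32.3 and 43.5 CPM and CBS/CSE(2) 33.7, 26.1 and 37.4 CPM, against 20.99, 24.3 and 20.5 CPM in the control. All libraries of MST, CBS(8) and both double deletions were above all control libraries. The gene was called higher in CBS/CSE(1) (0.68, SE 0.25, adjusted p = 0.047) and in CBS/CSE(2) (0.58, SE 0.25, adjusted p = 0.050, unrounded just under the threshold), but the first call was lost with any of the 6 libraries left out (0.52 to 0.75) and the second with 5 of the 6 (0.43 to 0.73). With TMM factors from thorax genes alone, *Lip4* in CBS/CSE(2) females turned to -0.50 and was called lower, on a scale where the median of all genes stood at -1.0.

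**Figure D2:**
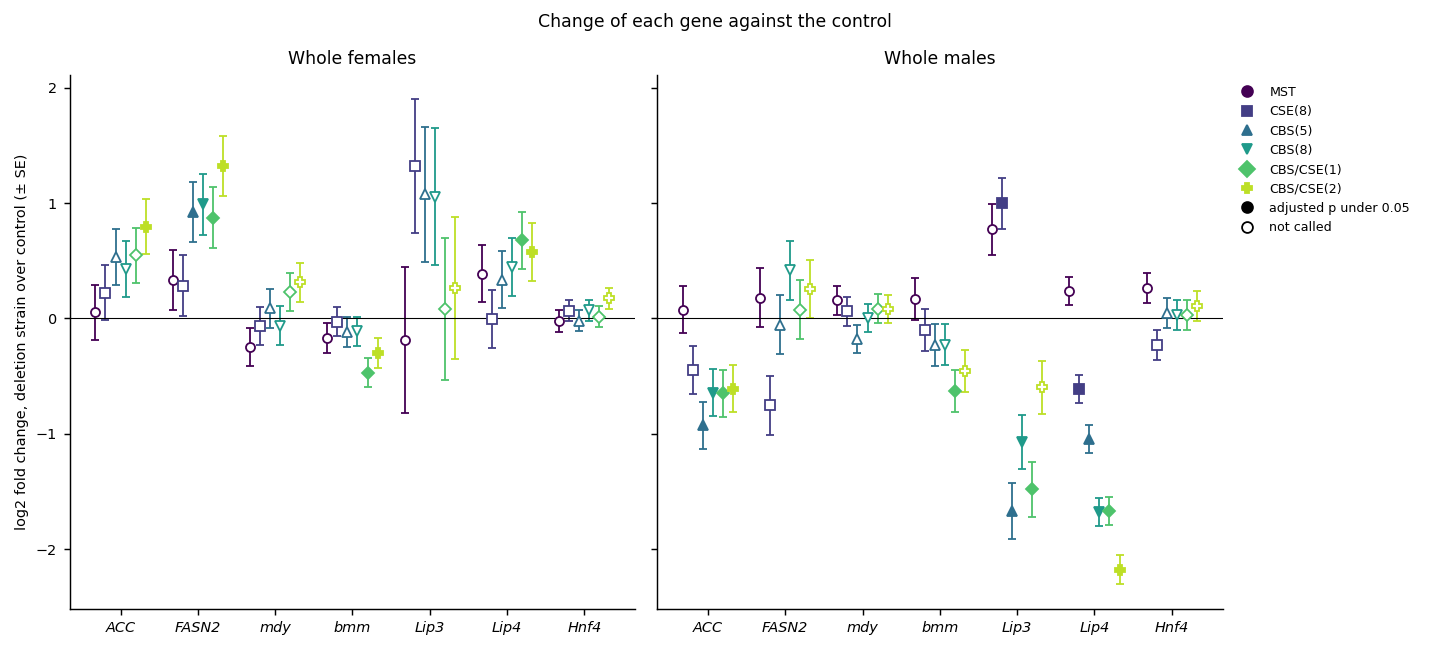
Log2 fold change against the control of the same sex for each gene (x axis) and strain (colour and marker), with standard errors, for whole females and whole males. Filled markers are called at an adjusted p under 0.05. Lip4 falls to between -0.61 and -2.18 in 5 strains in males, whereas in females it lies between -0.01 and 0.68.

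*Lip3*, the second acid lipase, split the strains in males. It had 11.03, 12.7 and 14.0 CPM in MST males and 12.4, 17.5 and 13.2 CPM in CSE(8) males, all above the control. CBS(5) males had 2.11, 2.30 and 2.16 CPM, CBS(8) males 3.01, 4.62 and 2.39 CPM, CBS/CSE(1) males 2.63, 3.28 and 2.23 CPM and CBS/CSE(2) males 5.56, 4.20 and 4.39 CPM, all below the control, which had 5.93, 7.29 and 8.98 CPM. In males of all 6 strains, therefore, the libraries did not overlap those of the control, and among these 6 the direction divided strains without *Cbs* from those with it. The male libraries labelled as backcrossed went otherwise, with 33.3 to 34.4 CPM of *Cbs* and 0.544 to 1.06 CPM of *Lip3*, below the control.

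*Lip3* rose in CSE(8) males (1.00, SE 0.22, adjusted p = 0.013), a call lost without library 1 or 2 of the control or library 2 of CSE(8) (0.84 to 1.16). It fell in CBS(5) males (-1.67, SE 0.24, adjusted p = 0.00011), in CBS(8) males (-1.07, SE 0.23, adjusted p = 0.0024) and in CBS/CSE(1) males (-1.48, SE 0.24, adjusted p = 0.00025). The call in CBS(8) males was lost with eggshell-based female RNA subtracted (-0.93, adjusted p = 0.079). The values for MST males (0.77, SE 0.22, adjusted p = 0.10) and CBS/CSE(2) males (-0.60, SE 0.23, adjusted p = 0.078) missed the threshold. In MST males *Lip3* was called higher by DESeq2 (0.83, adjusted p = 0.013) and in an edgeR fit of these groups alone (0.84, adjusted p = 0.016). Leaving out the CBS(5), CBS(8) and CSE(8) male libraries highest in eggshell sum also gave a call in MST (0.84, adjusted p = 0.047). Thorax-based TMM factors gave one in CBS/CSE(2) males (-0.71, adjusted p = 0.045). In females *Lip3* was near the limit of detection, with 0.175 to 1.90 CPM (4 to 44 counts) in all 21 libraries, and no strain was called. In each strain the female libraries overlapped those of the control.

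*ACC*, the first committed step of fatty acid synthesis, fell in males without *Cbs*. It had 642, 415 and 899.5 CPM in CBS(5) males, 837, 721 and 896 CPM in CBS(8) males, 871, 949 and 783 CPM in CBS/CSE(1) males and 852, 780.5 and 895 CPM in CBS/CSE(2) males, against 1294, 1218 and 1475 CPM in control males. CSE(8) males, at 892, 1174 and 778 CPM, were also below every control library. MST males, at 1467, 1168 and 1544 CPM, overlapped the control.

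The fold change of *ACC* was called in CBS(5) (-0.93, SE 0.21, adjusted p = 0.0036), CBS(8) (-0.64, SE 0.21, adjusted p = 0.023), CBS/CSE(1) (-0.65, SE 0.21, adjusted p = 0.045) and CBS/CSE(2) males (-0.61, SE 0.21, adjusted p = 0.048). It was not called in CSE(8) males (-0.45, SE 0.21, adjusted p = 0.25). The call in CBS(5) held with each library left out (-1.19 to -0.64), but not in a fit of CBS(5) and control males alone. The call in CBS(8) was lost without control library 3 or CBS(8) library 1 or 2 (-0.73 to -0.49), and those in the double deletions without any 1 of their 6 libraries (-0.72 to -0.57 and -0.69 to -0.54). Within CBS(5), *ACC* was lowest in the library with 34.9% female RNA (415 CPM) and highest in that with 1.04% (899.5 CPM), and the part of female RNA in this spread was not tested. All 4 calls held with the germline-based share subtracted, and all 4 were lost with the share taken from eggshell genes, under which the standard error of *ACC* was above 1.

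In females *ACC* was called in 1 strain. It had 370.5, 414 and 319.9 CPM in MST, 427, 411 and 400.4 CPM in CSE(8), 385, 337 and 761 CPM in CBS(5) and 560.2, 313 and 504 CPM in CBS(8). CBS/CSE(1) had 514, 457 and 564 CPM and CBS/CSE(2) 556, 559.8 and 653 CPM, against 351, 361 and 312 CPM in the control. All libraries of CSE(8) and of both double deletions were above all control libraries, and *ACC* was called higher in CBS/CSE(2) (0.80, SE 0.24, adjusted p = 0.0086). With thorax-based TMM factors this value was -0.25 and those of the other 5 strains were -0.22 to -0.03, none of them called, beside a median of all genes of -1.0 in CBS/CSE(2).

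*FASN2*, the fatty acid synthase of the oenocytes, rose in females without *Cbs*. It had 152, 124 and 222 CPM in CBS(5), 211, 117 and 190.0 CPM in CBS(8), 150.0, 153 and 188 CPM in CBS/CSE(1) and 215, 186 and 247 CPM in CBS/CSE(2) females. MST females had 122, 129 and 91.5 CPM and CSE(8) females 112, 105 and 112 CPM, against 71.8, 133 and 58.2 CPM in control females. Only the double deletions did not overlap the control, in which library 2 was the highest and lay within the range of CBS(5) and CBS(8).

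The log2 fold change of *FASN2* in females was 0.92 (SE 0.26, adjusted p = 0.025) in CBS(5), 0.99 (SE 0.26, adjusted p = 0.011) in CBS(8), 0.88 (SE 0.26, adjusted p = 0.019) in CBS/CSE(1) and 1.32 (SE 0.26, adjusted p = 0.00065) in CBS/CSE(2). The call in CBS/CSE(2) held with each library left out (1.11 to 1.69). The other 3 were each lost without control library 1 or 3, and without CBS(5) library 3 (0.61 to 1.30), CBS(8) library 1 (0.78 to 1.36) or CBS/CSE(1) library 3 (0.67 to 1.24). With thorax-based TMM factors all 4 stayed above 0, at 0.28 to 0.37, without being called, beside medians of all genes of -1.0 to -0.52. In males no strain was called for *FASN2*, although the libraries of CBS(8) and both double deletions lay above all control libraries. In CBS(8) males it was called higher in a fit of CBS(8) and control males alone (0.41, adjusted p = 0.022) and when the male library with the highest eggshell sum was left out of each of CBS(5), CBS(8) and CSE(8) (0.52, adjusted p = 0.030), the second an alternative added after the data had been seen. CSE(8) males, at 311, 359 and 227 CPM, lay below the control males at 548, 459 and 548 CPM (-0.75, SE 0.26, adjusted p = 0.12), and were called lower in a fit of these groups alone (-0.73, adjusted p = 0.016) and with thorax-based TMM factors (-0.86, adjusted p = 0.048). CBS(5) males spread from 235 to 727 CPM, with the lowest value in the library with the most female RNA.

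Markers of other cell types moved with strain in the females. In CBS/CSE(2) females 9 of 10 ovary germline genes were called lower and 1 higher, with a summed level of 3036 to 5811 CPM against 7167 to 8675 CPM in the control. In the same females 4 of 4 oenocyte genes, 10 of 13 midgut genes, 6 of 7 flight muscle genes and 2 of 5 fat body genes were called higher. Of all genes 66.3% were called in these females, and 52% of those calls were higher. With so few genes in a list, these counts are a description. The oenocyte sum was 4105 to 6194 CPM in CBS/CSE(2), 3652 to 4302 CPM in CBS/CSE(1), 3623 to 4617 CPM in CBS(8) and 3881 to 6061 CPM in CBS(5), against 1900 to 3113 CPM in the control. The fat body sum was 4948 to 6687 CPM in CBS/CSE(2), 3869 to 6597 CPM in CBS/CSE(1), 3398 to 4696 CPM in CBS(8) and 3501 to 6863 CPM in CBS(5), all above the 2301 to 3204 CPM of the control. All genes of these lists had counts in every whole female, except 1 fat body gene in 2 CBS(8) libraries. The oenocyte list is *Cyp4g1*, *Fad2*, *eloF* and *FarO*, and it shares *eloF* with the elongation list. In bulk samples, fewer cells of a type and less RNA per cell cannot be told apart, and the part of cell makeup in the female values of *FASN2*, *ACC* and *Lip4* was not tested.

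In the males, testis genes were lower in CBS(8), where 11 of 14 were called lower (918 to 1561 CPM summed, against 2211 to 3030 CPM in the control), and in CBS(5), where 6 of 14 were (996 to 2167 CPM). Of all genes 19.6% were called lower in CBS(8) males and 18.1% in CBS(5) males. In CBS/CSE(2) males, with the largest fall of *Lip4*, 2 of 14 were called lower, beside 9.74% of all genes. The testis sum of 1245 to 2016 CPM in these males lay below that of every control library. In CBS/CSE(1) males 0 of 14 testis genes were called by edgeR (1658 to 2755 CPM), beside 12.7% of all genes, and there *Lip4*, *Lip3* and *ACC* were called lower as well. The oenocyte sum in males was 14485 to 17070 CPM in CBS/CSE(2), 13282 to 14472 CPM in CBS/CSE(1), 16406 to 18226 CPM in CBS(8), 12472 to 21824 CPM in CBS(5) and 13938 to 15368 CPM in CSE(8), against 17989 to 21005 CPM in the control. In CSE(8) males 1 of 4 fat body genes tested was called lower, beside 3.71% of all genes called. The fat body sum was 4316 to 5305 CPM in CSE(8) males, against 8169 to 9179 CPM in control males, whose range overlapped that of every other deletion strain. The part of these tissues in the male values was not tested.

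*bmm*, the lipase of the fat droplet, fell in double deletions of both sexes. It had 83.8, 98.2 and 82.3 CPM in CBS/CSE(1) males and 99.9, 81.7 and 99.5 CPM in CBS/CSE(2) males, against 128, 149 and 123 CPM in control males. In females it had 81.7, 62.6 and 74.7 CPM in CBS/CSE(1) and 61.8, 83.4 and 94.5 CPM in CBS/CSE(2), against 105, 93.8 and 95.7 CPM in the control. All libraries were below the control except that the female CBS/CSE(2) libraries overlapped it.

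*bmm* was called lower in CBS/CSE(1) males (-0.63, SE 0.18, adjusted p = 0.027) and females (-0.47, SE 0.13, adjusted p = 0.012), and in CBS/CSE(2) females (-0.30, SE 0.13, adjusted p = 0.048), and not in CBS/CSE(2) males (-0.46, SE 0.18, adjusted p = 0.087). Without control library 2 or CBS/CSE(1) library 1 or 3 the call in CBS/CSE(1) males was lost (-0.72 to -0.55), and without CBS/CSE(1) library 2 that in females (-0.56 to -0.38). The call in CBS/CSE(1) males was also lost with eggshell-based female RNA subtracted (-0.72, SE 1.04). The call in CBS/CSE(2) females was lost without 4 of its 6 libraries (-0.48 to -0.16) and with upper-quartile factors (-0.14). It was also lost without a filter on low counts and among genes with 10 counts in every library. The replicate block and a fit of CBS/CSE(2) and control females alone lost it as well. In the other strains *bmm* had 75.7 to 161 CPM in males and 80.9 to 104 CPM in females, and no strain was called.

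*mdy* and *Hnf4* were not called by edgeR with its own TMM factors in any of the 12 whole-fly comparisons with the control. *mdy*, the last enzyme of triglyceride synthesis, ranged from 38.4 to 65.1 CPM in males of the deletion strains against 50.2 to 52.2 CPM in control males, and from 30.7 to 57.8 CPM against 35.4 to 43.3 CPM in females. Its fold changes lay between -0.25 and 0.31. *Hnf4*, the nuclear receptor, ranged from 77.0 to 135 CPM against 96.6 to 116 CPM in males and from 76.3 to 104 CPM against 82.1 to 92.3 CPM in females, with fold changes of -0.23 to 0.27. Over the 12 comparisons these were the narrowest ranges of the 7 genes, and their standard errors in males were 0.12 and 0.13. With thorax-based TMM factors both turned lower in CBS/CSE(2) females (-0.76 and -0.84), and so did *Hnf4* in CBS(8) females (-0.57), again on scales where the median of all genes was below 0. There *mdy* (-0.70, adjusted p = 0.0095) and *bmm* (-0.76, adjusted p = 0.024) were also called lower in CBS(8) females, and *mdy* in CBS(5) males (-0.35, adjusted p = 0.031). With upper-quartile factors *mdy* (0.48, adjusted p = 0.034) and *Hnf4* (0.33, adjusted p = 0.0065) were called higher in CBS/CSE(2) females, as was *Hnf4* among genes with 10 counts in every library (0.23, adjusted p = 0.039).

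The double deletions were also set against the *CBS* strain each came from. They differ from it by the loss of *Cth* and by the crosses with the *CSE* and balancer strains. In these comparisons the loss of *Cth* and strain background cannot be told apart. In males *Lip4* was lower still, with a log2 fold change of -0.63 (SE 0.12, adjusted p = 0.0019) in CBS/CSE(1) against CBS(5) and of -0.50 (SE 0.12, adjusted p = 0.018) in CBS/CSE(2) against CBS(8). Neither pair of groups overlapped. It was the 1 gene of 7 called in each comparison, beside 36.1% (19.8% lower) and 9.1% (4.27% lower) of all genes. Both calls were lost when only the 6 libraries compared were fitted, and the second also without CBS/CSE(2) library 2 or 3 or CBS(8) library 1 or 2 (-0.56 to -0.47). The second was lost too with eggshell-based female RNA subtracted (-0.54, adjusted p = 0.25). So it was without the CBS(5), CBS(8) and CSE(8) male libraries highest in eggshell sum (-0.49, adjusted p = 0.056). The germline-based female share reached 34.9% in CBS(5) and 19.3% in CBS(8) males, and at most 1.24% in double deletion males. Its part in these differences was not tested. In females 0 genes were called by edgeR or by DESeq2 in either comparison, beside 3.72% and 5.41% of all genes by edgeR, with 1 gene at an unadjusted p under 0.05 in each, beside 15.2% and 27.4%. Of 10548 genes, DESeq2 called 604 and 1038. The female fold changes lay between -0.996 (*Lip3*, SE 0.57) and 0.38 (*mdy*, SE 0.17).

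Within a strain, the levels of females were set against those of males in a fit of all 42 whole-fly libraries. In MST 0 of the 7 genes were higher and 7 lower in females, in CSE(8) 5, in CBS(5) 3, in CBS(8) 4 and in CBS/CSE(1) 3 were lower and 0 higher, and in CBS/CSE(2) 1 was higher and 3 lower, against 0 higher and 6 lower in the control. DESeq2 called 7 lower in MST, 6 each in CSE(8) and CBS(8), 5 each in CBS(5) and CBS/CSE(1), and 1 higher and 5 lower in CBS/CSE(2), against 7 lower in the control. Of 13535 genes it called 6653 (CBS/CSE(2)) to 7551 (control) lower, and 4074 higher in CBS/CSE(2). With upper-quartile factors 7 were lower in each of MST and CBS(5), 6 in each of CSE(8), CBS(8) and CBS/CSE(1), and 5 in CBS/CSE(2), against 7 in the control, and 0 were higher. With these factors 6793 (CBS/CSE(2)) to 7813 (MST) of 13535 genes were lower and 3585 (CBS(5)) to 4364 (control) higher. By edgeR with TMM factors, 90.2% of all genes were called in MST (53.9% lower), 87.8% in CSE(8) (52.2%), 82.9% in CBS(5) (49.8%), 82.3% in CBS(8) (48.9%), 86% in CBS/CSE(1) (48.4%) and 78.2% in CBS/CSE(2), against 90.2% in the control (53.4%). For *Lip4* the log2 ratio of females over males was -0.81 (SE 0.18) in CBS(5), -0.07 (SE 0.18, adjusted p = 0.73) in CBS(8), 0.32 (SE 0.18, adjusted p = 0.10) in CBS/CSE(1) and 0.55 (SE 0.18, adjusted p = 0.0074) in CBS/CSE(2), against -2.14 (SE 0.19, adjusted p = 4.2e-12) in the control. In CBS/CSE(2) females had 26.1 to 37.4 CPM of *Lip4* and males 21.9 to 22.6 CPM, without overlap, a call that was lost with upper-quartile factors.

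**Figure D3:**
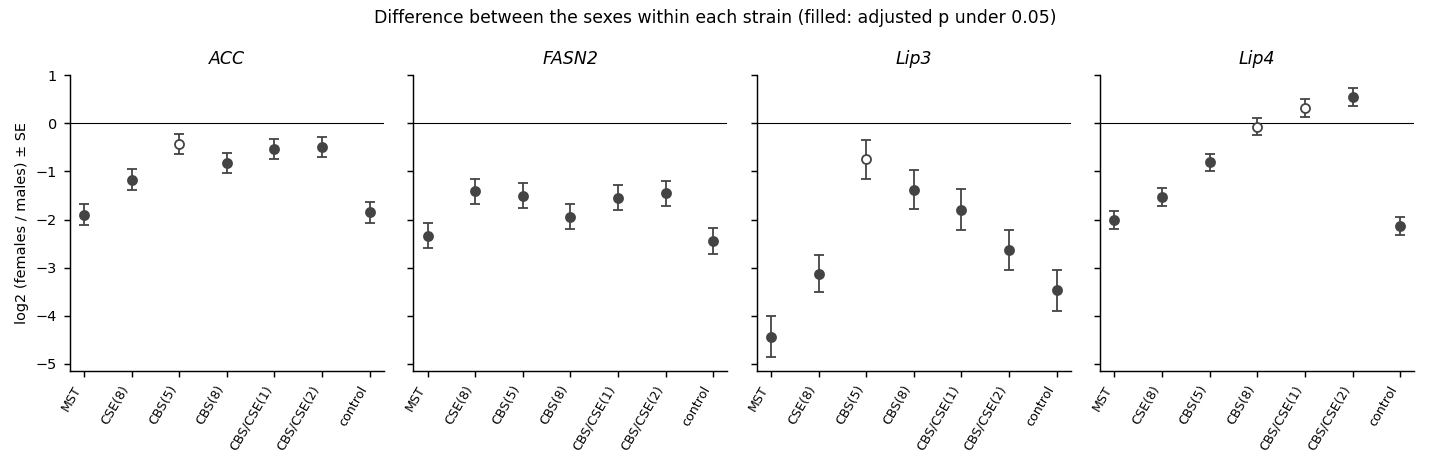
Log2 ratio of females over males in whole flies of each strain for ACC, FASN2, Lip3 and Lip4, with standard errors, deletion strains left of the control. Filled points are called. The ratio of Lip4 is -2.14 in the control and 0.55 in CBS/CSE(2), and that of ACC is -1.85 in the control and -0.43 in CBS(5).

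The difference between the sexes in the effect of a deletion was tested directly, with the male effect subtracted from the female one. It was called for *ACC*, *Lip3* and *Lip4* in CBS(5), CBS(8) and CBS/CSE(1), which is 3 of 7 genes beside 13.6% (8.02% above 0), 17.8% (9.75%) and 21.5% (19%) of all genes, and for *FASN2*, *ACC* and *Lip4* in CBS/CSE(2), beside 31.3% (19.8%). All 12 differences were above 0. With only the strain and the control in the fit, the 3 calls in CBS(5) and those of *Lip3* in CBS(8) and CBS/CSE(1) were lost. For *Lip4* they were 1.33 (SE 0.26) in CBS(5), 2.08 (SE 0.26) in CBS(8), 2.46 (SE 0.26) in CBS/CSE(1) and 2.69 (SE 0.26) in CBS/CSE(2), with adjusted p of 0.0012, 1.6e-06, 6.5e-08 and 2.7e-08. For *ACC* they were 1.42 (SE 0.30), 1.02 (SE 0.29), 1.31 (SE 0.30) and 1.35 (SE 0.30) in the same strains. In MST and CSE(8) 0 of 7 were called by edgeR or by DESeq2 in the fit of all strains, beside 0.214% and 0.813% of all genes by edgeR, with 2 and 4 genes at an unadjusted p under 0.05 by edgeR, beside 7.43% and 13.6%. Of 13535 genes, DESeq2 called 88 and 203. In a fit of CSE(8) and the control alone, edgeR called *FASN2* (1.00, adjusted p = 0.047), *ACC* (0.63, adjusted p = 0.037) and *Lip4* (0.57, adjusted p = 0.038). Whole flies of the sexes differ in cell makeup, ovaries and testes included, and its part in these differences was not tested.

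The paper describes the thoraxes as lacking ovaries, but RNA of eggshell and midgut genes was found in them. Eggshell genes summed to 206 to 618 CPM in thoraxes of control females, against 4869 to 12405 CPM in their whole flies. Midgut genes summed to 4759 to 60643 CPM in these thoraxes, against 2826 to 5409 CPM in whole flies. The part of these tissues in the thorax values was not tested. In control females *FASN2* was higher in thoraxes than in whole flies by 2.42 (SE 0.34, adjusted p = 0.00010), *Lip4* by 1.61 (SE 0.34, adjusted p = 0.0015) and *ACC* by 1.60 (SE 0.35, adjusted p = 0.0017), which is 3 of 7 genes beside 72.3% of all genes called (36.5% higher), a share near that of all genes. These calls held with each library left out. In CPM, however, thoraxes and whole flies of control females overlapped for all 3 genes. *FASN2* had 82.4 to 476 CPM in thoraxes and 58.2 to 133 CPM in whole flies. *ACC* had 219 to 1021 against 312 to 361 CPM, and *Lip4* 13.8 to 77.4 against 20.5 to 24.3 CPM. The sizes rest on the scaling, with the median of all genes at 0.10 here and at 0.68 with upper-quartile factors. In control males only *mdy* was called (0.38, SE 0.15, adjusted p = 0.049), 1 of 7 beside 57% of all genes (26.5% higher). Replicate numbers paired the libraries of that comparison, and in the blocked fit *mdy* was not called (0.38) and *Lip3* was called lower in the thorax (-0.79). Between thoraxes of control females and control males 0 genes were called by edgeR, beside 2.29% of all genes, with 2 genes at an unadjusted p under 0.05 beside 18.1%, and *Lip3* alone was called lower in females by DESeq2. Of 11669 genes, DESeq2 called 505 lower in that comparison.

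**Figure D4:**
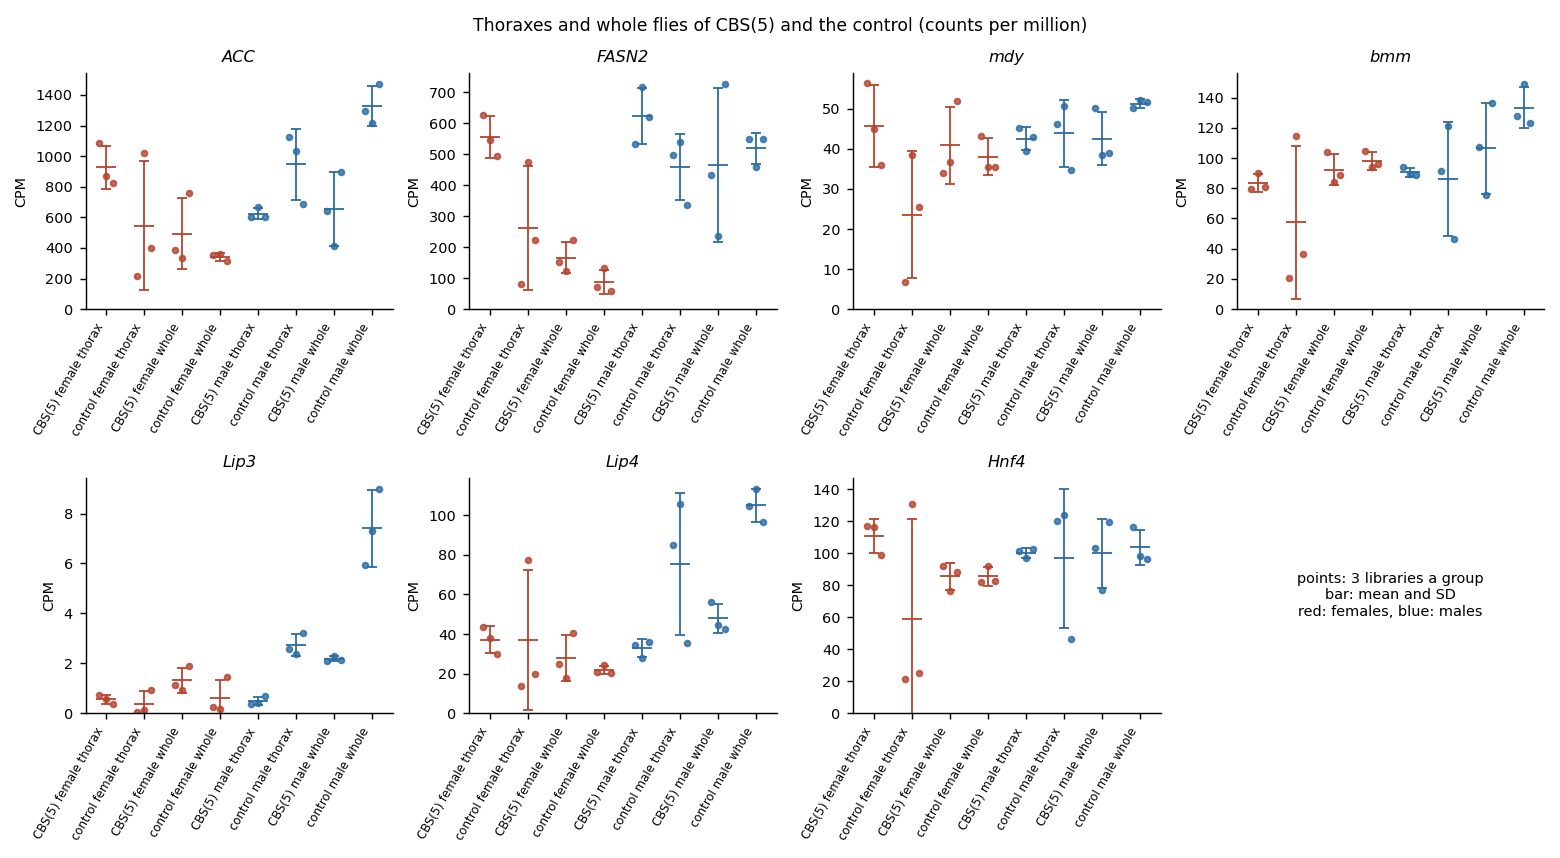
CPM of the 7 genes in thoraxes and whole flies of CBS(5) and the control, females in red and males in blue, with the libraries as points and bars for the mean and SD of 3 libraries. The control female thoraxes spread widely in every panel (Lip4 from 13.8 to 77.4 CPM), and Lip3 lies at 0.395 to 0.701 CPM in CBS(5) male thoraxes against 2.37 to 3.22 CPM in control male thoraxes.

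The CBS(5) deletion was also measured in thoraxes. Accessory gland genes summed to 19.3 to 1155 CPM in CBS(5) male thoraxes and 12.971 to 255 CPM in control ones. Midgut genes summed to 18196 to 21779 CPM and 20475 to 31513 CPM in the same groups. In female thoraxes eggshell genes summed to 1.597 to 1017 CPM in CBS(5), against 206 to 618 CPM in the control. These ranges overlapped, and the part of these tissues in the differences was not tested. In male thoraxes *Lip3* had 0.395, 0.427 and 0.701 CPM in CBS(5) against 2.59, 2.37 and 3.22 CPM in the control. *Lip4* had 34.7, 28.1 and 36.1 CPM against 85.0, 105 and 35.6 CPM, and *ACC* had 604, 667 and 600.5 CPM against 1125, 1031 and 685 CPM. *Lip3* and *ACC* did not overlap between the groups, whereas the *Lip4* level of control library 3 fell within the range of CBS(5). That library, with few reads outside genes, was also the lowest of its group for *FASN2*, *mdy*, *bmm* and *Hnf4*.

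In male thoraxes 0 of 7 genes were called by edgeR, beside 1.85% of all genes, with 3 at an unadjusted p under 0.05 beside 10.5%. These 3 were *Lip3* (-2.65, SE 0.50, adjusted p = 0.066), *Lip4* (-1.27, SE 0.26, adjusted p = 0.082) and *ACC* (-0.76, SE 0.17, adjusted p = 0.11), and DESeq2 called all of them lower. Of 11337 genes, DESeq2 called 419 lower there. Without control library 3, edgeR called *Lip4* (-1.49) and *ACC* (-0.76). In female thoraxes 6 of the 7 genes were tested and 0 were called by edgeR, DESeq2 or with any library left out, beside 0% of all genes by edgeR, with 0 at an unadjusted p under 0.05 by edgeR beside 5.88%. Of 10153 genes, DESeq2 called 173 there. The control female thoraxes spread too far for a comparison of levels, with *ACC* at 219, 1021 and 399 CPM, against 1086, 874 and 822 CPM in CBS(5). The effect in thoraxes minus that in whole flies was called for 0 of 7 genes in either sex by edgeR and DESeq2, beside 0.00929% and 0.123% of all genes by edgeR, with 0 genes at an unadjusted p under 0.05 by edgeR in either sex, beside 8.34% and 12.5%. DESeq2 called 114 of 10762 genes in females and 164 of 12992 in males.

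The libraries labelled as CBS/CSE(2) backcrossed on yw are males. Library 3 held 7321 counts and was left out. The other libraries had 34.4 and 33.3 CPM of *Cbs* and 45.4 and 32.7 CPM of *Cth*, against at most 0.462 and 3.85 CPM in CBS/CSE(2) males, which goes against a loss of both genes, so they are called here by their label only. Their flight muscle sum was 11425 to 14543 CPM, against 2777 to 3680 CPM in control males, and their accessory gland sum 3647 to 4126 CPM, against 1711 to 2057 CPM. Their fat body sum was lower, at 3296 to 4012 CPM against 8169 to 9179 CPM, and so was their oenocyte sum, at 12829 to 13088 CPM against 17989 to 21005 CPM. The part of these tissues in the values was not tested. In these libraries *Lip4* had 49.5 and 46.3 CPM, *Lip3* 1.06 and 0.544 CPM, *ACC* 589 and 638 CPM and *bmm* 63.9 and 80.5 CPM, all below the control males. Against the control 0 of 7 genes were higher and 4 lower, beside 16% of all genes (8.32% lower), with *Lip3* at -3.04 (SE 0.34, adjusted p = 2.6e-06) and *Lip4* at -0.98 (SE 0.14, adjusted p = 3.8e-05). The others were *ACC* (-0.97, SE 0.23, adjusted p = 0.0058), lost without backcrossed library 1, and *bmm* (-0.74, SE 0.21, adjusted p = 0.018), lost without that library or control library 2. Against CBS/CSE(2) males *Lip4* was higher by 1.22 (SE 0.14, adjusted p = 2.4e-06) and *Lip3* lower, at -2.41 (SE 0.34, adjusted p = 4.5e-05), beside 21.1% of all genes.

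Other genes of fat metabolism were counted over 8 lists of 89 genes in all, of which 82 had a row and 73 were tested in whole females and 81 in whole males. In females 12 were called higher and 0 lower in CBS(5), 17 and 5 in CBS(8), 14 and 7 in CBS/CSE(1), and 28 and 11 in CBS/CSE(2), while MST had 0 called by edgeR and CSE(8) 2 higher and 0 lower. Set against 15.2%, 24.6%, 30.8% and 66.3% of all genes called in the 4 strains without *Cbs*, these counts are near the general share in CBS(5), CBS(8) and CBS/CSE(1) and below it in CBS/CSE(2). The median fold change of the lists was 0.11 to 0.28 in the 4 strains without *Cbs*, beside medians of all genes between -0.01 and 0.03. In males 10 were called higher and 14 lower in CBS(5), 9 and 14 in CBS(8), 7 and 14 in CBS/CSE(1), and 11 and 14 in CBS/CSE(2), with medians of -0.05 to 0.05. Beside 32.7%, 32.3%, 12.7% and 18% of all genes called, they are near the general share in the CBS strains and above it in the double deletions.

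Of the precursor and fatty acid synthesis genes tested, 5 of 5 were called higher in CBS/CSE(2) females and 3 of 5 in CBS(5), CBS(8) and CBS/CSE(1) females. Of all genes 34.4% were called higher in CBS/CSE(2), 11.3% in CBS(5), 16.6% in CBS(8) and 16.6% in CBS/CSE(1) females. *AcCoAS*, which makes acetyl-CoA from acetate, was called higher in these 4 strains (0.48 to 1.00). In males none of 6 such genes was higher in any strain, and *Zw*, the glucose-6-phosphate dehydrogenase that supplies NADPH, was called lower in the 4 strains without *Cbs* (-1.01 to -0.88). Other list genes called higher in females of these 4 strains were the elongase *eloF* (0.75 to 1.41), the lipid droplet protein *Lsd-1* (1.39 to 2.05), the sugar-responsive factor *sug* (1.29 to 2.12) and the nuclear receptor *Eip75B* (0.72 to 1.28).

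Of the other lipases, in females CG18302 was called higher in 5 strains (2.29 to 3.64), *mag*, the gut lipase magro, also in 5 (0.53 to 1.77), and CG2772 in 4 (0.66 to 1.33). In males *Lip1* was called lower in 5 strains (-2.71 to -1.73), CG18284 in 5 (-1.97 to -0.60) and CG7329 in 5 (-0.98 to -0.55), all of them CSE(8) and the strains without *Cbs*. In the same males CG11598 was called higher in the 4 strains without *Cbs* (1.93 to 5.09) and CG18302 in 5 strains (0.91 to 1.69). *Dgat2*, a diacylglycerol acyltransferase like *mdy*, was called higher in males of the 4 strains without *Cbs* (1.35 to 2.90), whereas *mdy* was not. The lipoprotein receptor gene *LpR2* was called lower in 4 male strains (-1.29 to -0.69).

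In CBS(5) male thoraxes 2 of 77 list genes tested were called higher and 3 lower, beside 1.85% of all genes called. *Dgat2* was higher there too (1.92, SE 0.28, adjusted p = 0.033). The acyl-CoA synthetase *bgm* (-1.21, SE 0.16, adjusted p = 0.027), the acyl-CoA oxidase *Acox57D-d* (-1.06, SE 0.16, adjusted p = 0.035) and *Mtp*, which loads lipids on lipoproteins (-0.94, SE 0.15, adjusted p = 0.045), were lower. In CBS(5) female thoraxes 0 of 71 were called by edgeR.

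**Figure D5:**
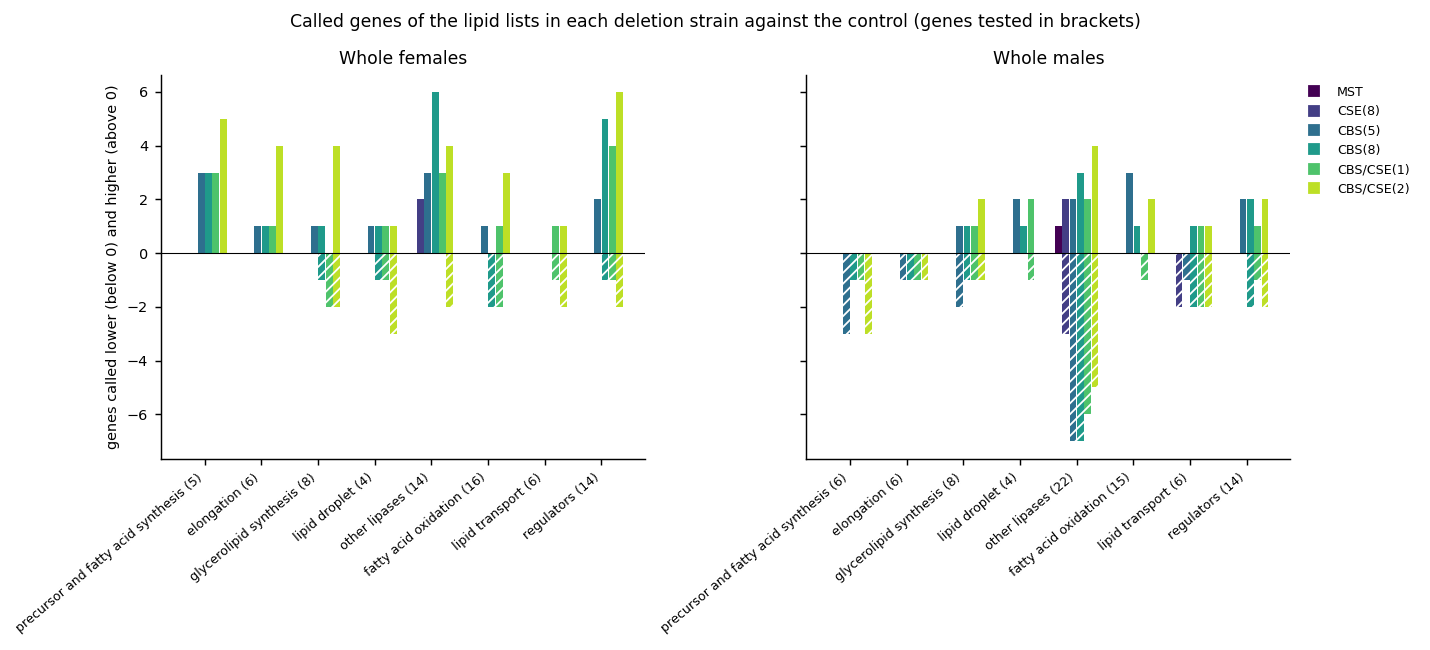
Number of genes of 8 lists of fat metabolism called higher (above 0) or lower (below 0, hatched) in each deletion strain against the control, for whole females and whole males, with the number of genes tested in brackets. The synthesis list has 3 to 5 of 5 genes higher in females of the strains without Cbs, and the list of other lipases has 5 to 7 of 22 genes lower in males of these strains. Of all genes 15.2% to 66.3% were called in these females, and 7.29% to 19.6% were called lower in these males.

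The pattern of each gene was compared with that of other genes over the 18 groups without the backcrossed strain, as group means of log2(CPM + 1) centred on each sex and body part, among genes with a mean of at least 5 CPM. The correlations are across groups that share sex, tissue and control, and carry no p. The genes most like *ACC* were *ATPCL* (r = 0.944), the ATP citrate lyase that supplies its acetyl-CoA, and CG1640 (r = 0.923). *Lip4* was closest to *Tmlh* (r = 0.952), a hydroxylase of carnitine synthesis, and CG13795 (r = 0.949), and *Lip3* to CG5793 (r = 0.932) and CG3739 (r = 0.892). *FASN2* was closest to the chitin synthase *Chs2* (r = 0.962) and *OtopLb* (r = 0.949). *mdy* was closest to *Edem2* (r = 0.911) and *aralar1* (r = 0.908), *bmm* to *qkr54B* (r = 0.858) and CG10237 (r = 0.853), and *Hnf4* to *MTF-1* (r = 0.941) and *lute* (r = 0.941). Between the 7 genes themselves, the highest values were 0.772 for *mdy* and *Hnf4*, 0.703 for *ACC* and *mdy*, and 0.692 for *ACC* and *Lip4*.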

How the data were processed

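The deposited values are raw counts of reads per gene, which the authors did not normalize, from 75-base single-end poly(A) RNA libraries made with a directional kit. Reads were trimmed and mapped to dm6 with STAR, and the submitters' notes name Trimmomatic 0.38, STAR 2.5.0a and featureCounts 1.5.0-p1. The strand setting and the annotation are not given in the sources used here. Here the 12 rows that name no gene were left out of totals and tests. CPM values are scaled to the library total. Coordinates, exon lengths and symbols came from Ensembl release 115 (BDGP6), which matched 17253 of 17559 identifiers.

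Counts were tested with edgeR 4.0.16 in R 4.3.3 (filterByExpr with minimum count 10 and total 15, TMM, quasi-likelihood F test), with the 7 strains of a sex fitted together, and p-values were adjusted by Benjamini-Hochberg over all genes tested. Whole-fly sexes were fitted together for differences between them, thoraxes of a sex in fits of 6 libraries, thoraxes with whole flies in fits of 12, and the backcrossed males with the other whole males. SE is the fold change over the root of F, and the scripts were tested on simulated data. Of the 57 pairs of libraries within groups, 0 had equal counts. The labels do not say that libraries came from separate cultures, so p-values measure the spread between these libraries, which may be technical. The alternatives were DESeq2 1.42.0, upper-quartile factors, other filters, only the groups compared, an adjusted p under 0.01, a replicate block, each library left out, thorax-based TMM (genes of at least 5 CPM in control thoraxes and at least as high there as in whole flies) and subtraction of female RNA. The germline-based subtraction, whose share is the median of *osk*, *bcd*, *swa* and *dhd* relative to females of the strain, was added after the data had been seen, as was leaving out the library of CBS(5), CBS(8) and CSE(8) males with the highest eggshell sum. Replicate numbers paired the libraries, by correlations of deviations over 0.1 in every pair, only for CBS/CSE(1) against CBS(5) females, thoraxes against whole flies of control males, and the sexes of control thoraxes.

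Named were all members, the deleted genes, up to 8 list genes per sex called in the same direction in most strains, up to 4 list genes called in thoraxes of a sex, and the 2 genes most like each member in pattern. The members, lists and rule were chosen with earlier results of these data known.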

Additional observations from a re-analysis of the deposited data

Results flagged for a closer look

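The effect of a deletion differed between the sexes, by a test of the difference itself, for 12 combinations of gene and strain, all with the female effect above the male one. For *Lip4* the difference on the log2 scale was 1.33 in CBS(5), 2.08 in CBS(8), 2.46 in CBS/CSE(1) and 2.69 in CBS/CSE(2). For *ACC* it was 1.42, 1.02, 1.31 and 1.35 in the same strains. For *Lip3* it was 2.72 in CBS(5), 2.09 in CBS(8) and 1.67 in CBS/CSE(1), on female levels under 2 CPM, and the last was lost without any 1 of 10 of the 12 libraries (0.99 to 3.23). For *FASN2* it was 1.00 in CBS/CSE(2), lost without control female library 1 or 3 or CBS/CSE(2) female library 1 or 3 (0.79 to 1.41). The germline-based share of female RNA reached 34.9% in CBS(5) and 19.3% in CBS(8) males and was at most 1.24% in the double deletion males, and its part in these differences was not tested.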

How the results depend on the processing

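The count of calls over the 6 strains was 9 in whole females and 14 in whole males. At an adjusted p under 0.01 these were 2 and 9, and 1 of 2 calls of the double deletions against their parents in males was left. Subtraction of eggshell-based female RNA, whose share reaches 88.2% in a CBS(5) library, left 7 calls in males and 1 of the double deletions, and the germline-based share 13. A fit of only the groups compared left 0 calls of the double deletions against their parents. DESeq2 called 3 genes in male thoraxes and 1 between thoraxes of the sexes, thorax-based TMM 1 in male thoraxes, and upper-quartile factors 7 between thoraxes and whole flies, against 4. Thorax-based TMM moved the median of all genes in females by -0.16 (MST) to -1.02 (CBS/CSE(2)), where 11.3% of all calls were then higher, against 52%, and 14.4% to 30.2% in the other strains without *Cbs*, against 54% to 74.5%. Upper-quartile factors moved the median of females over males by -0.40 to -0.20 and that of thoraxes over whole flies in control females by 0.59. Thorax-based TMM turned *ACC* (-0.25), *Lip4* (-0.50), *mdy* (-0.76) and *Hnf4* (-0.84) in CBS/CSE(2) females and *Hnf4* (-0.57) in CBS(8) females. With 1 library left out, the counts ran from 3 to 11 in females, 10 to 18 in males, 0 to 1 and 1 to 4 for double deletions against their parents in females and males, 0 to 2 in male thoraxes, 0 to 0 in female thoraxes, 30 to 36 (32 with all libraries) for the sexes within strains, 10 to 14 (12 with all libraries) for effects differing between the sexes, 3 to 6 for thoraxes against whole flies, 0 to 1 between thoraxes of the sexes and 4 to 7 (6 with all libraries) for the backcrossed libraries. The causes were not tested.

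With the replicate number as a block, 14 calls in whole males became 12 and 9 in females 8, and no library set of a strain and the control correlated best by number in all 3 pairs except CSE(8) males. For the paired comparison of thoraxes with whole flies in control males *mdy* was lost (0.38) and *Lip3* gained (-0.79). Female thoraxes vary most between libraries, and *Lip3* in females rests on few counts.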
